A study of Homo sapiens with 120 samples.

Results

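Glycolysis and the response to low oxygen share many genes, and 37 of them were followed here through 120 RNA libraries made from H1, a human embryonic stem cell line in wide use. The members were taken by gene name from a list, chosen with earlier results of these data known, and make up 37 of the 62703 genes in the deposited table. They fall into 4 lists: 15 glycolytic enzymes from HK1 to PKM, 6 genes of lactate handling and of glucose and lactate transport, 3 regulators of glycolytic flux (PFKFB3, PFKFB4 and PDK1), and 13 other targets of the hypoxia-inducible factors (HIF). Of these libraries, 96 in 48 groups form the differentiation arm, with unedited cells (WT), lncPRESS1 knockout cells (KO) and ΔATG cells, named for lncPRESS1 without its start codon, each sampled at day 0 and then daily on days 1 to 5 along 3 routes. These are BMP4, which is labelled as mesoderm, neural induction with SMAD inhibitors towards neuroectoderm (SMADi) and a definitive endoderm kit (Endo). In the overexpression arm, 24 libraries in 12 groups come from H1 cells labelled as carrying an empty vector, lncPRESS1, lncPRESS1 ΔATG or lncSIRP, collected at 3 stages, labelled early, middle and late. Each group has 2 libraries, a and b. Nothing in the labels says that these are separate cultures, and p-values then measure the spread between these libraries. The number of clones behind each line, what lncSIRP is, the days of the stages and the oxygen tension of the cultures are not stated in the labels. Each protocol has its own medium, so protocol and medium cannot be told apart.

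Glycolysis turns glucose into pyruvate in the cytosol, and lactate dehydrogenase and the monocarboxylate transporters carry the surplus out of the cell as lactate. In normal oxygen the prolyl hydroxylases of the EGLN family mark HIF1A and EPAS1 (HIF-2 alpha) protein for destruction through VHL. In low oxygen the surviving protein pairs with ARNT, binds a short DNA element and raises the genes of most glycolytic steps together with genes for angiogenesis, mitophagy, collagen hydroxylation and the hydroxylases themselves. Primed human pluripotent cells are known for a highly glycolytic metabolism, which many lineages reduce as they differentiate. HIF is controlled mainly as a protein, so messenger RNA of HIF1A is not a measure of its activity.

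Levels below are TMM-scaled CPM (the count of a gene scaled to one common library total), given for library a and then library b. They serve to compare 1 gene between samples, since they are not divided by gene length. Differences are log2 fold changes with their standard error (SE) from a fit with edgeR, and a gene was called, that is it rose or fell, at an adjusted p under 0.05 in the edgeR quasi-likelihood F test with Benjamini-Hochberg adjustment over all tested genes. All 37 members passed the filter on low counts in both arms, among 25821 and 23300 genes. Library totals ran from 38298603 to 71219834 counts in the differentiation arm and from 40113893 to 65466595 in the overexpression arm.

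The edited lines were checked at LNCPRESS1 itself. It stood at 21.4 and 40.6 CPM in WT at day 0, at 13.2 and 5.60 in KO and at 53.1 and 35.2 in ΔATG, so KO was lower at day 0 without being empty. Both KO libraries were also below both WT libraries on each of days 1 to 5 in BMP4 and in SMADi, but not in Endo, where KO held 1.64 and 1.88 CPM and WT 1.65 and 1.05 on day 1 and 0.309 and 0.312 and 0.209 and 0.376 on day 2. On SMADi day 4 the WT libraries held 5.95 and 6.20 CPM, KO 0.0375 and 0.124 and ΔATG 0.113 and 0.105. In the overexpression arm the gene did not follow all labels. At the early stage the library pairs labelled vector, lncPRESS1, lncSIRP and lncPRESS1 ΔATG held 28.97 and 30.2, 32.3 and 53.8, 185 and 133 and 144 and 156. At the middle stage the pair labelled lncPRESS1 held 55.1 and 58.6 beside 47.8 and 36.3 for vector. Marker sums, given for the lower and the higher library of each pair, followed the labels at day 0 and in Endo. The summed CPM of 5 pluripotent markers was 2929 and 3005 at WT day 0. That of 5 definitive endoderm markers was 13932 and 14348 on WT Endo day 5. SMADi followed its label in part. The sum of 5 neuroectoderm markers was 569 and 572 on WT SMADi day 5, while the pluripotent sum was still 1101 and 1112. BMP4, labelled as mesoderm, also followed its label less closely. There the sum of 5 mesoderm markers was 369 and 373 on day 2, beside a definitive endoderm sum of 329 and 387, and the pluripotent sum was still 1775 and 1847 on day 5. The mesoderm sum was higher on WT Endo day 1, at 2573 and 2609, than in any WT BMP4 library. Bulk RNA cannot tell fewer cells of a type from less RNA per cell.

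The HIF element has the core ACGTG, with GCGTG as a variant. Of the 37 members, 32 had a RefSeq promoter window in the GRCh38.p14 table, which runs from 250 bases before to 50 after each transcription start. ACGTG, searched on both strands, was present in at least 1 window of 20 of the 32 genes (62.5%), against 24.9% of 27305 genes in the table. Counted by windows, since a gene with several starts has more chances, it was in 24 of 61 member windows (39.3%) and in 21.4% of all 35116. GCGTG was in 19 of 32 genes (59.4%, against 40.6%) and in 25 of 61 windows (41.0%, against 36.5%). By list, 10 of 15 enzymes (66.7%), 2 of 3 flux regulators, 6 of 10 other targets (60%) and 2 of 4 genes of lactate and transport held ACGTG. PKM, SLC2A1, ADM, EGLN3 and P4HA2, which are also compared below, held no ACGTG in their windows. SLC2A3 and VEGFA had no window. The 8 stretches printed here come only from members that held ACGTG. They are the 30 upstream bases with the most ACGTG matches in each gene's window. They read 5′ to 3′ on the gene's own strand, and capitals mark ACGTG or GCGTG on either strand, so that CACGTG is a match on both.

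PGK1: cggACGTGacaaacggaagccgCACGTctc

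LDHA: actcaCACGTGggttcccgCACGTccgccg

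ALDOC: aagtgcccggCACGTGgtaaagggattgtg

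HK2: ttccggcgagagCACGTGgagagaatcgtg

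SLC16A3: gcggtgACGTGcgcgggggACGTGccgcgc

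BNIP3: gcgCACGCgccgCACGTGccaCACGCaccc

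ANKRD37: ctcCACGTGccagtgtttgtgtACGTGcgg

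MXI1: gtggccaccagtCACGTaagcagagagccg

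In GRCh38.p14 the PGK1 stretch lies at chrX:78104043-78104072 on the plus strand, 205 to 176 bases before the start, and the LDHA stretch at chr11:18394471-18394500, plus strand, 92 to 63 bases before it. The ALDOC stretch lies at chr17:28577116-28577145, minus strand, 250 to 221 bases before the start. The HK2 stretch lies at chr2:74835009-74835038, plus strand, 161 to 132 bases before it. The SLC16A3 stretch lies at chr17:82228968-82228997, plus strand, 74 to 45 bases before the start, and the BNIP3 stretch at chr10:131982040-131982069, minus strand, 146 to 117 bases before it. The ANKRD37 stretch is at chr4:185396676-185396705, plus strand, 165 to 136 bases before the start, and the MXI1 stretch at chr10:110210106-110210135, plus strand, 125 to 96 bases before it. GENCODE 29, which has longer transcripts at some genes, places the LDHA, ALDOC and ANKRD37 stretches in an exon of a transcript of the same gene, those of PGK1, HK2, SLC16A3 and MXI1 in an intron of the gene, and that of BNIP3 outside any gene; the ALDOC stretch also lies in an intron of AC005726.1. LDHA and ANKRD37 had 3 matches each, MXI1 had 1 and the others 2, and BNIP3 alone of the 8 also held GCGTG, with 2 matches. A match describes the letters only.

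The summed TMM-scaled CPM of the members was 1.997% of the scaled library total at WT day 0. On day 5 this scaled share in WT was 1.97% in BMP4, 1.17% in SMADi and 1.83% in Endo. The scaled share was lowest in the edited lines on SMADi day 5, at 0.857% in KO and 0.880% in ΔATG. These are not shares of the raw counts. The TMM factors were 1.034 and 1.088 at WT day 0 and 0.858 and 0.857 on WT Endo day 5. The share of raw counts therefore fell further in Endo than the scaled share did. How far each gene moved over the 48 group means differed widely. The narrowest span was PFKM, the muscle type of phosphofructokinase, at 2.17-fold from lowest to highest group mean, followed by PGAM1 (2.58-fold), BNIP3L (2.80-fold), LDHB (2.9996-fold) and ENO1 (3.18-fold). Among enzymes the widest was PKM (13.6-fold), the pyruvate kinase gene, and among transporters SLC16A3, the lactate exporter MCT4 (102-fold). ADM, which encodes the vasodilator adrenomedullin, went from 0.0448 CPM on KO SMADi day 4 to 155 CPM on ΔATG SMADi day 1. The library mean of log2 CPM over the 15 enzymes had a Spearman correlation of 0.87 over the 48 group means with that of lactate and transport, and of 0.64 with that of the other HIF targets. These are descriptions over groups that share a baseline. In GENCODE 29 on GRCh38, PKM (ENSG00000067225) lies at chr15:72199029-72231822 on the minus strand, SLC2A1 (ENSG00000117394) at chr1:42925375-42959176 on the minus strand and ADM (ENSG00000148926) at chr11:10304680-10307397 on the plus strand. CA9, a carbonic anhydrase and a widely used hypoxia marker, stayed under 1.89 CPM in every group mean of the differentiation arm.

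**Figure D1:**
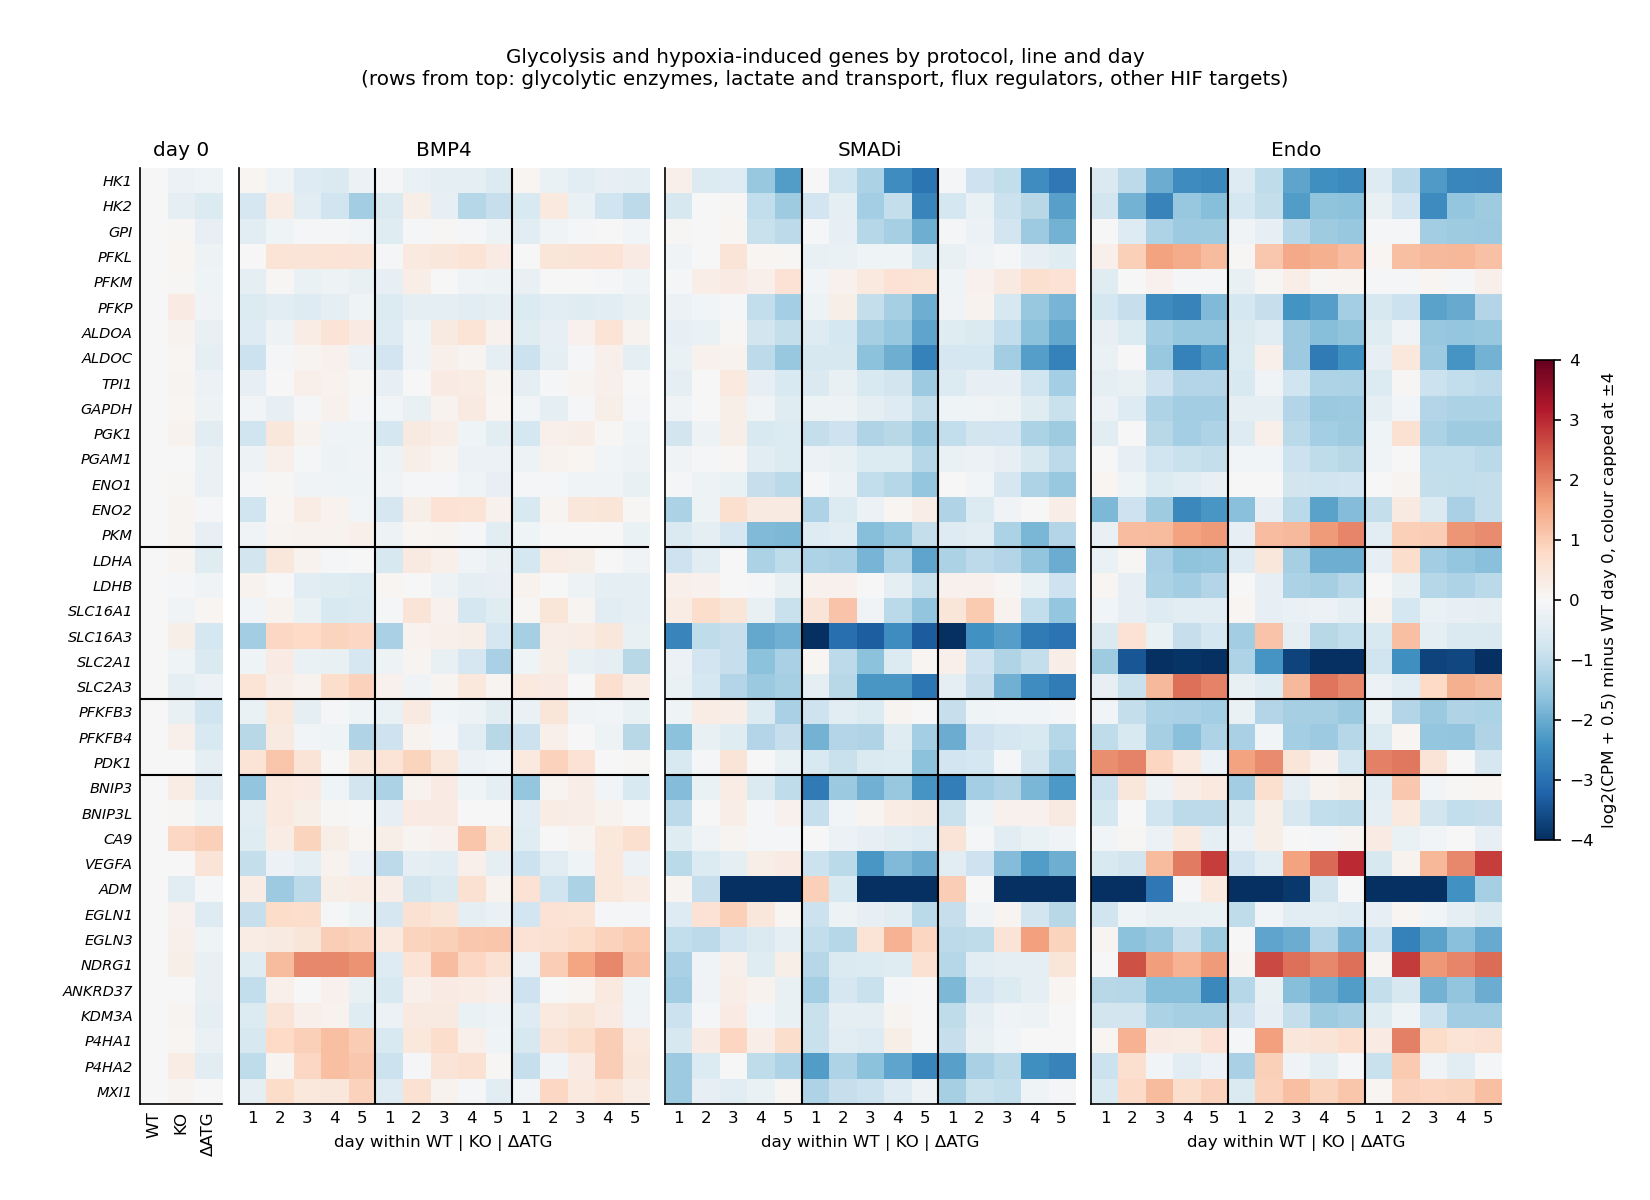
Mean log2(CPM + 0.5) of each of the 37 members (rows, ordered by list) in every group of the differentiation arm (columns, by protocol, line and day) minus that of WT day 0, with colour from blue for lower to red for higher and capped at 4 either way. In WT SMADi ADM turns deep blue by day 5, at 0.471 and 0.628 CPM, and in WT Endo VEGFA is red on day 5, at 743 and 799 CPM.

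On day 1 most members fell in all 3 protocols. Of the 37 members, 2 rose and 21 fell in WT BMP4 against WT day 0, where 27.2% of all tested genes were called. In SMADi 1 rose and 22 fell (43.6% of all genes called), and in Endo 2 rose and 23 fell (46.2%). Cells were dissociated and reseeded on day 0 in all protocols, and the comparisons share the day 0 libraries. Of the other HIF targets 8, 10 and 9 of 13 fell in BMP4, SMADi and Endo, with medians of -0.72, -1.08 and -0.70. The medians of the 15 enzymes were -0.39, -0.23 and -0.35. Over all tested genes the median of each comparison in this arm lay between -0.06 and 0.05. PDK1, the kinase that shuts pyruvate dehydrogenase, was 1 of the 2 that rose in Endo, by 1.84 (SE 0.23, adjusted p = 1.80e-09). It held 70.4 and 42.7 CPM at day 0, 169 and 235 on Endo day 1 and 47.8 and 45.9 on Endo day 5, so both day 5 libraries lay within the day 0 pair.

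The day 0 libraries themselves differ at these genes. Mean log2 CPM of the enzymes, relative to the mean of both, was 0.15 and -0.15 in WT libraries a and b, and that of the flux regulators 0.46 and -0.46. BNIP3, a mitophagy receptor, held 283 and 163 CPM and LDHA 1380.4 and 843. Every comparison with WT day 0 rests on this pair, and library a is the higher one in all 4 lists.

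**Figure D2:**
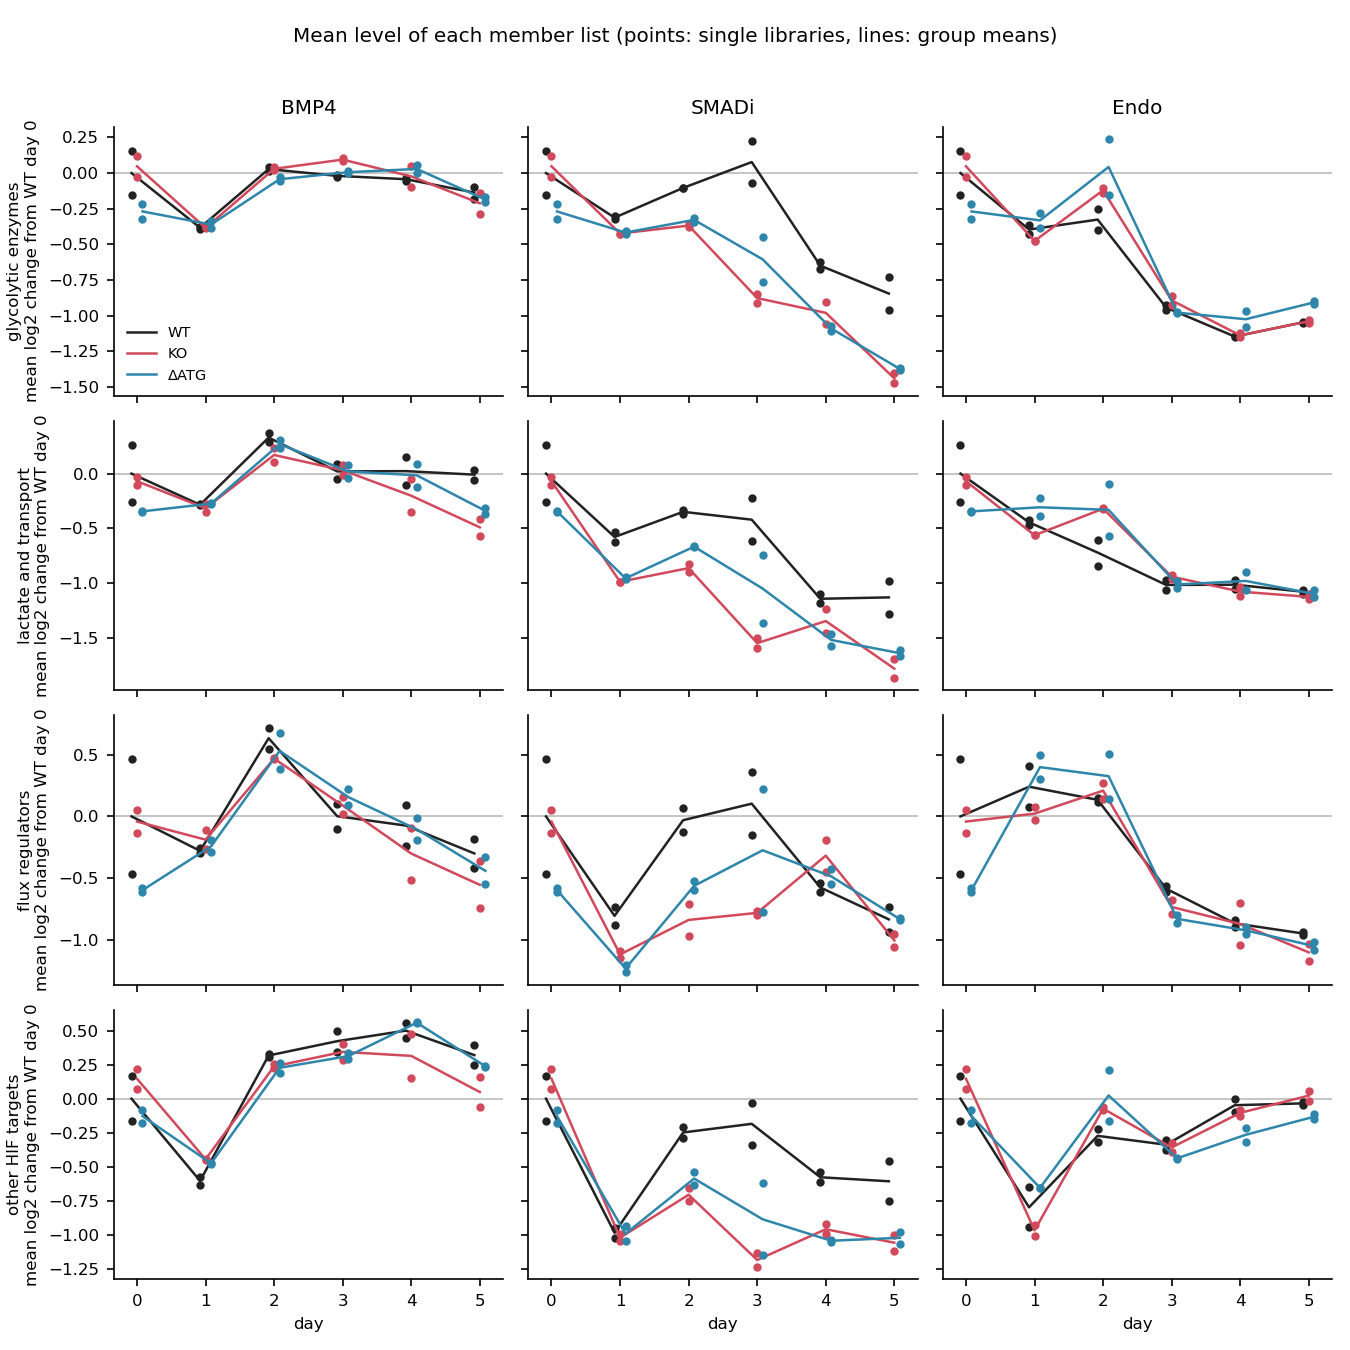
Mean log2 CPM of each member list relative to WT day 0 (vertical axis) against day (horizontal axis), by protocol and line, with each library as a point. In WT SMADi the enzymes go from 0.08 on day 3 to -0.65 on day 4, and in KO SMADi they stand at -0.88 on day 3.

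After day 1 the protocols parted. In BMP4 9 members rose and 3 fell against day 0 on day 2 (29.4% of all genes called), and 9 rose and 9 fell by day 5 (42.0%). In SMADi 4 enzymes had risen and 3 had fallen on day 3, when 38.1% of all genes were called, and the median enzyme change was 0.08 on day 3 and -0.74 on day 4 (44.4% of all genes called). On day 5 in SMADi, 3 members had risen and 24 had fallen, with 51.6% of all genes called. In Endo 19 members were lower and 7 higher on day 2 (54.7%), and 23 lower and 7 higher on day 5 (62.4%). Leaving out library b of WT BMP4 day 5 reduced the BMP4 count of called members from 18 to 11; for SMADi and Endo each library left out in turn gave 24 to 28 and 28 to 30.

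Among the enzymes, 2 rose and 3 fell in BMP4 by day 5, 2 and 12 in SMADi, and 2 and 12 in Endo, with medians of -0.15, -0.97 and -1.38, against 42.0%, 51.6% and 62.4% of all genes called. Hexokinase 1, the constitutive first step, had the deepest fall of the enzymes in SMADi and Endo. HK1 held 404 and 346 CPM at day 0, 84.9 and 72.9 on SMADi day 5 and 64.5 and 59.4 on Endo day 5. Its change was -2.25 (SE 0.09, adjusted p = 7.46e-28) in SMADi and -2.60 (SE 0.09, adjusted p = 5.93e-31) in Endo, and -0.24 (SE 0.09, adjusted p = 0.0269) in BMP4. HK2, the inducible hexokinase, fell in BMP4 from 262 and 145 to 87.9 and 62.4 CPM, a change of -1.43 (SE 0.23, adjusted p = 8.82e-07).

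PKM, whose gene makes both pyruvate kinase M1 and M2, moved in opposite directions. It held 1945 and 1535 CPM at day 0, 1998 and 1943 on BMP4 day 5, 547 and 445 on SMADi day 5 and 5613 and 5659 on Endo day 5. SMADi lay below and Endo above day 0 in every library, with changes of -1.81 (SE 0.10, adjusted p = 1.71e-22) and 1.70 (SE 0.10, adjusted p = 7.26e-22); that in BMP4 was 0.18 (SE 0.10, adjusted p = 0.133). In Endo the rise came between day 1 (1426 and 1371 CPM) and day 2 (4027 and 4152). PFKL, the liver type of phosphofructokinase, also rose in Endo, by 1.27 (SE 0.08, adjusted p = 2.11e-20), from 166 and 140.5 to 368 and 371 CPM. PFKP, the platelet type, fell there from 214 and 182 to 56.2 and 58.2, a change of -1.79 (SE 0.08, adjusted p = 2.24e-27). The log2 ratio of PFKP to PFKL therefore went from 0.37 at day 0 to -2.69 on Endo day 5, and was -1.05 on SMADi day 5.

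The second aldolase and enolase genes, ALDOC and ENO2, are known as the forms of nervous tissue. ALDOC fell from 98.96 and 77.04 CPM at day 0 to 33.01 and 27.2 on SMADi day 5 and to 17.8 and 17.8 on Endo day 5, with changes of -1.55 (SE 0.11, adjusted p = 2.42e-17) and -2.30 (SE 0.12, adjusted p = 2.25e-24). ENO2 held 181 and 168 CPM at day 0 and rose in SMADi, to 234 and 215, by 0.37 (SE 0.12, adjusted p = 0.0104), with its highest WT levels on SMADi day 3 (299.5 and 250.1). In Endo it fell to 32.3 and 37.02, a change of -2.33 (SE 0.13, adjusted p = 1.11e-22). Set against ENO1, the log2 ratio of ENO2 was -3.73 at day 0, -2.27 on SMADi day 5 and -5.76 on Endo day 5. PFKM rose by 0.57 (SE 0.09, adjusted p = 6.44e-07) in SMADi and was the only other enzyme called higher there.

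GAPDH, which opens the payoff phase of the pathway, held 5209.8 and 5046 CPM at day 0, 4729 and 4986 on BMP4 day 5, 3885 and 3479 on SMADi day 5 and 1933 and 2019 on Endo day 5; SMADi and Endo were below day 0. Its log2 changes were -0.08, -0.48 and -1.38, the latter 2 called. PGK1, the first ATP-making step, changed by -0.18, -0.55 and -1.25, TPI1 by 0.04, -0.60 and -1.18, and GPI by -0.12, -1.06 and -1.44. For these 3 the SMADi and Endo values were called and those of BMP4 were not. ENO1 changed by -0.19, -1.09 and -0.31, and PGAM1 by -0.15, -0.55 and -0.95. ALDOA, the main aldolase, rose in BMP4 by 0.31 (SE 0.12, adjusted p = 0.0266), a call lost without either day 5 library or day 0 library b, and fell, with log2 changes of -0.97 and -1.52 in the other two.

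The glucose transporters moved in opposite directions in Endo. SLC2A1 (GLUT1), the common basal transporter, held 646 and 371 CPM at day 0, 348 and 274 on BMP4 day 5, 216 and 181 on SMADi day 5 and 21.2 and 18.8 on Endo day 5. SLC2A3 (GLUT3), a transporter of high affinity, held 1001 and 758, 1759.8 and 1544, 377 and 316 and 3480.4 and 3432 in the same groups. In Endo SLC2A1 fell, with a log2 change of -4.67 (SE 0.26, adjusted p = 5.92e-23) and SLC2A3 rose by 1.97 (SE 0.13, adjusted p = 1.39e-19), so that their log2 ratio went from -0.83 at day 0 to -7.43. In SMADi both fell, with log2 changes of -1.36 and -1.34, and the ratio stood at -0.80. In BMP4 SLC2A1 fell, with a log2 change of -0.71 (SE 0.22, adjusted p = 0.00705) and SLC2A3 rose by 0.91 (SE 0.13, adjusted p = 3.15e-08).

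Of the lactate genes, LDHA, which favours making lactate from pyruvate and is a classical HIF target, changed by -0.05 (SE 0.21, adjusted p = 0.898) in BMP4, -1.05 (SE 0.21, adjusted p = 4.08e-05) in SMADi and -1.63 (SE 0.22, adjusted p = 3.28e-09) in Endo on day 5. LDHB, the subunit that favours the reverse reaction, changed by -0.53, -0.29 and -1.17, all called. SLC16A3 held 102 and 63.1 CPM at day 0, rose to 135 and 149 on BMP4 day 5, by 0.78 (SE 0.25, adjusted p = 0.00951), and fell to 25.9 and 16.4 on SMADi day 5, a change of -1.97 (SE 0.26, adjusted p = 6.11e-09). Its partner SLC16A1 (MCT1), which carries lactate in both directions, fell, with log2 changes of -0.60, -0.90 and -0.44. The flux regulators PFKFB3 and PFKFB4 set fructose 2,6-bisphosphate, the activator of phosphofructokinase. PFKFB4 fell in all 3 protocols, with log2 changes of -1.28, -0.98 and -1.34. PFKFB3 fell, with log2 changes of -1.44 in SMADi and -1.50 in Endo, and its BMP4 value of -0.26 was not called.

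**Figure D3:**
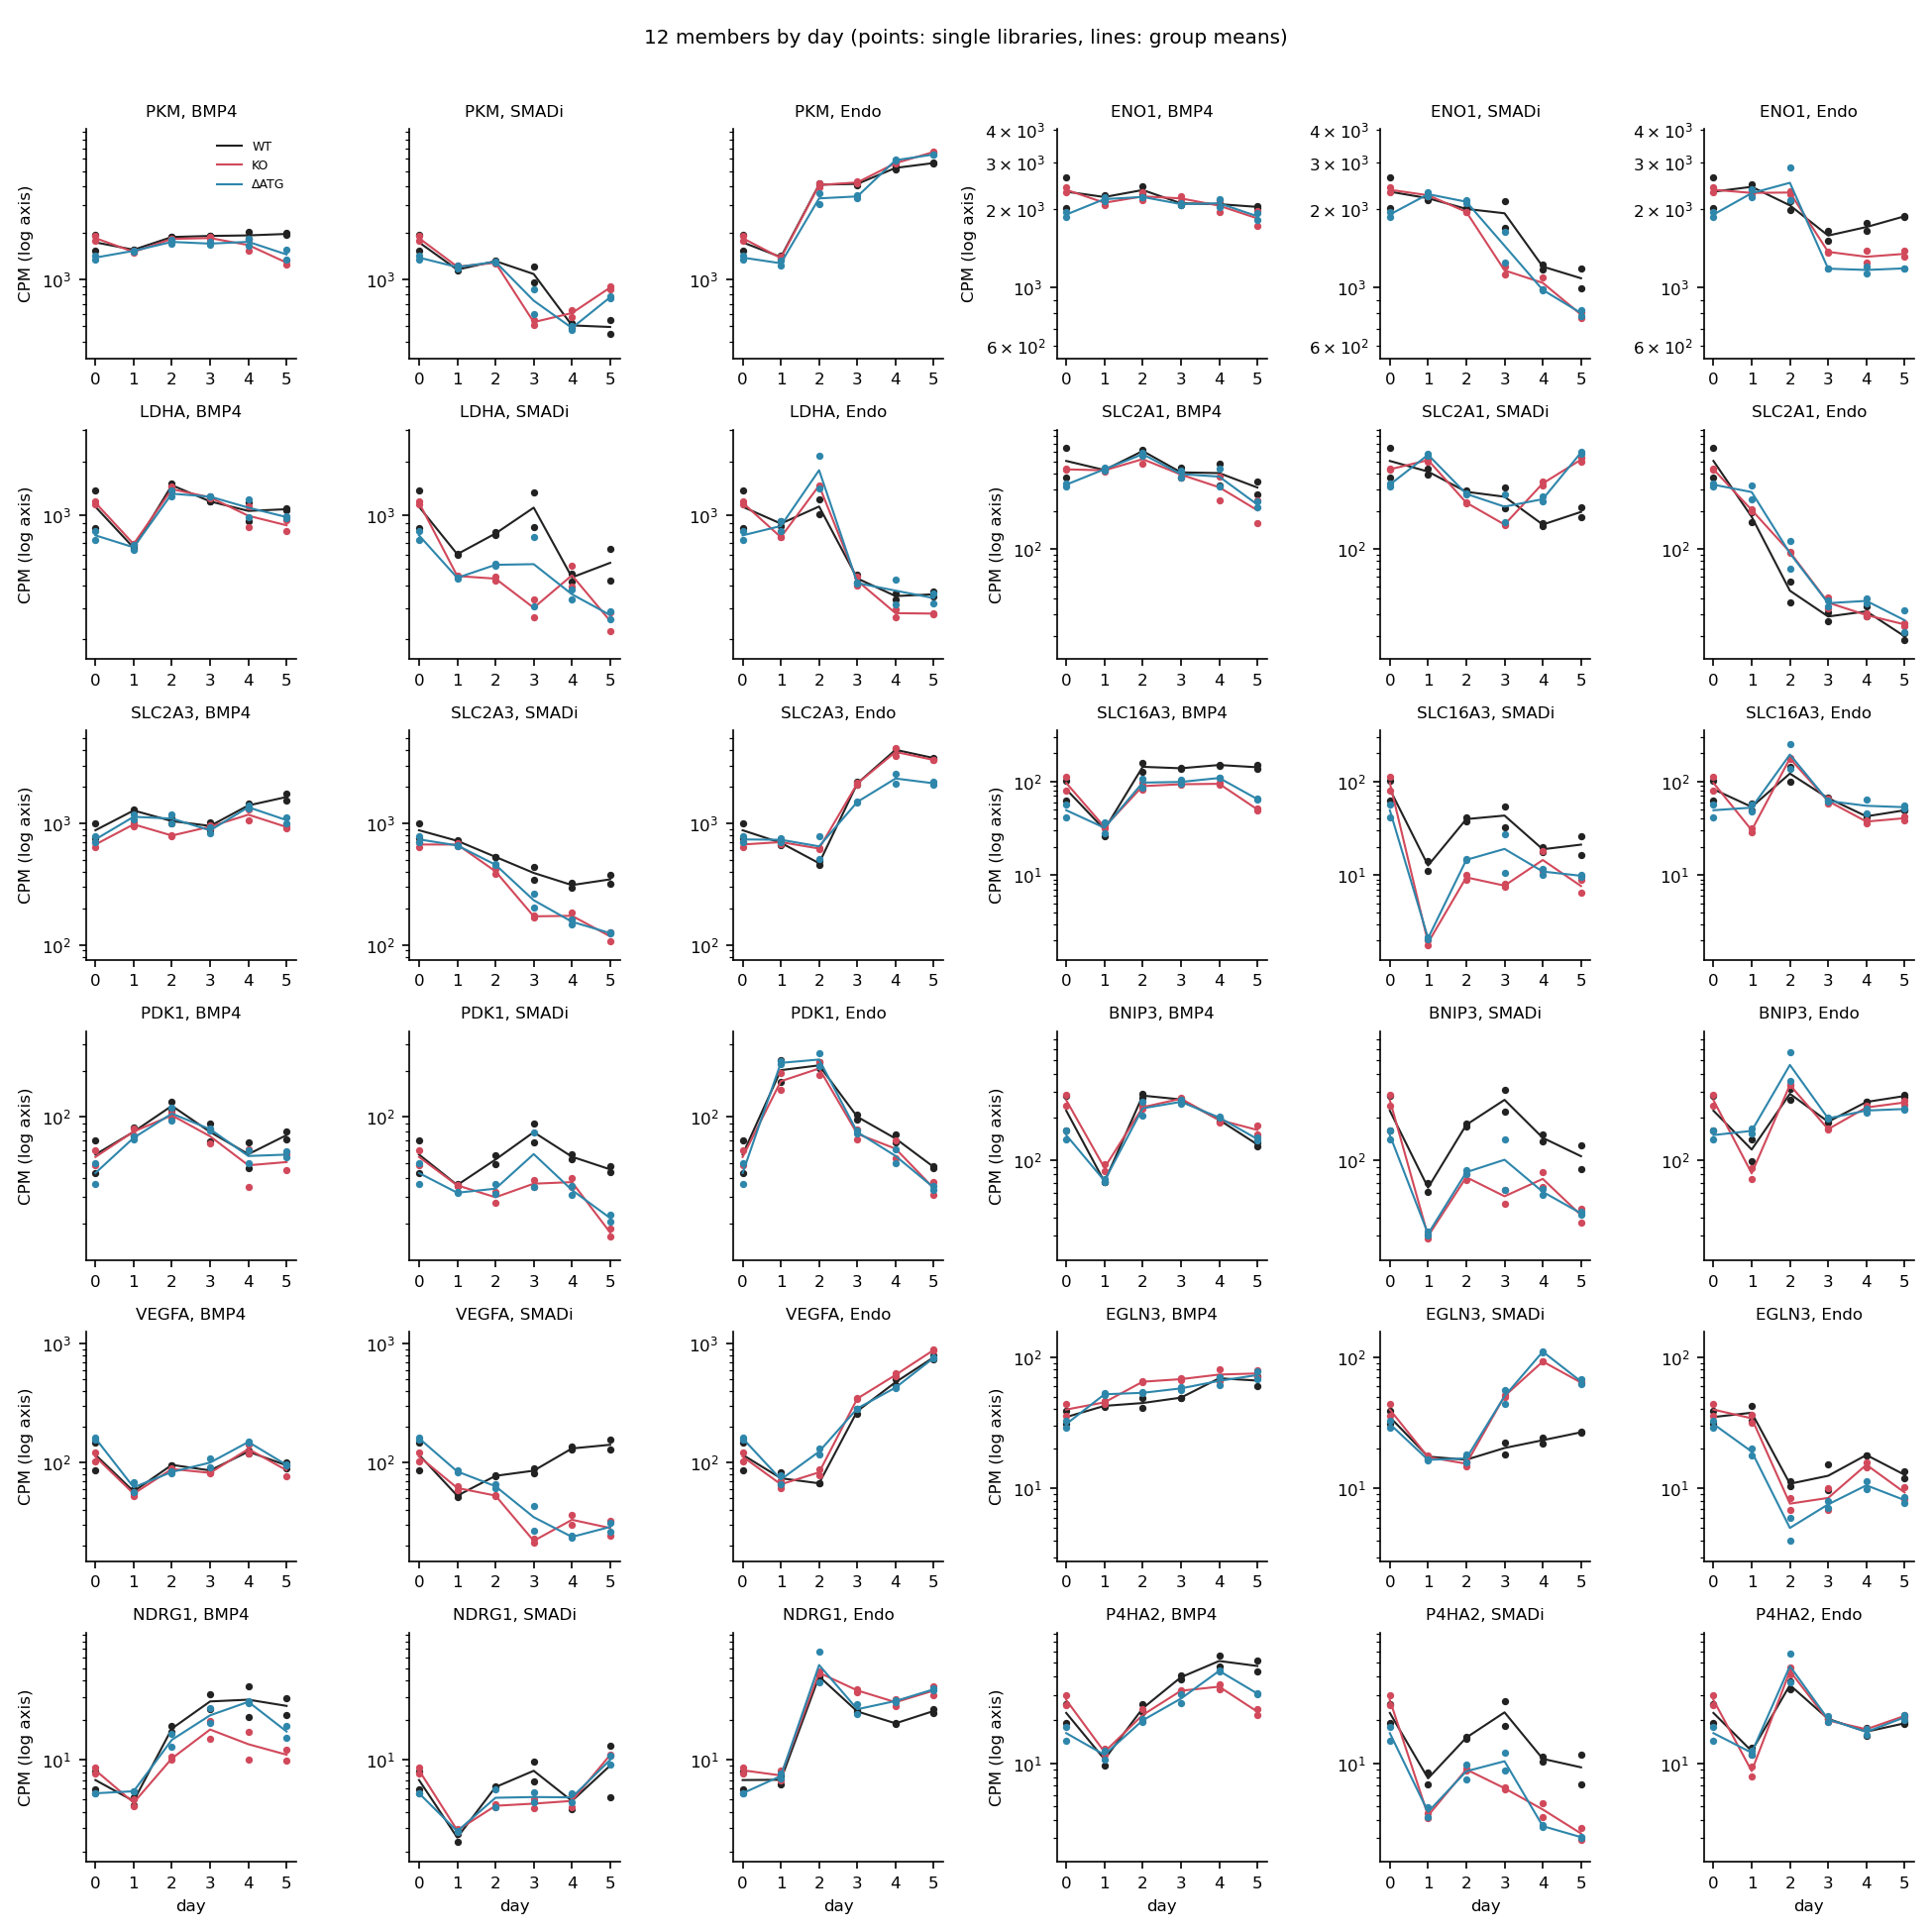
CPM on a log axis against day for 12 members in each protocol, with the libraries as points and lines through the group means of WT, KO and ΔATG. On SMADi day 4 EGLN3 holds 24.5 and 21.96 CPM in WT against 91.98 and 92.7 in KO and 108 and 111 in ΔATG, and SLC16A3 is lower in KO and ΔATG than in WT on SMADi day 1.

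The other HIF targets were called at or below the share of all genes on day 5 in SMADi and Endo. Of the 13, 5 rose and 2 fell in BMP4 by day 5, 1 rose and 4 fell in SMADi, and 4 rose and 4 fell in Endo, with medians of 0.15, -0.08 and -0.24, where 42.0%, 51.6% and 62.4% of all genes were called. ADM had the widest path. In SMADi it held 88.7 and 79.3 CPM on day 1, 41.1 and 40.6 on day 2, 4.43 and 3.97 on day 3 and 0.471 and 0.628 on day 5, against 82.2 and 73.5 at day 0, and it fell, with a log2 change of -7.14 (SE 0.23, adjusted p = 8.69e-33). In Endo it dropped at once, to 2.98 and 4.42 CPM on day 1, and came back to 103 and 102 on day 5, above day 0 by 0.39 (SE 0.15, adjusted p = 0.0219). In BMP4 it dipped to 29.3 and 26.6 on day 2 and stood at 104 and 88.9 on day 5.

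VEGFA, the angiogenic growth factor, held 86.1 and 147 CPM at day 0 and 743 and 799 on Endo day 5, where both libraries were above day 0 and the rise was 2.73 (SE 0.16, adjusted p = 4.81e-22). On SMADi day 5 it held 128 and 155, with 1 library inside the day 0 pair and 1 above it, a change of 0.28 that was not called. NDRG1, a stress-responsive gene that is low in these cells, held 8.08 and 5.90 CPM at day 0 and rose to 29.4 and 22.02 on BMP4 day 5 and 24.2 and 22.8 on Endo day 5, by 1.88 (SE 0.24, adjusted p = 4.18e-09) and 1.75 (SE 0.24, adjusted p = 9.21e-09). MXI1, a MYC antagonist, rose in the same protocols by 0.93 and 0.95. BNIP3 held 134 and 125 CPM on BMP4 day 5, 128 and 86.6 on SMADi day 5 and 277 and 286 on Endo day 5; its changes were -0.78, -1.05 and 0.34 (SE 0.20, adjusted p = 0.137), the first 2 called. ANKRD37, a small ankyrin-repeat gene, fell in Endo from 3.27 and 2.93 CPM to 0.0599 and 0.152 (adjusted p = 2.06e-15), a handful of counts, so the fitted fold depends on the prior count and is not given.

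The 2 collagen prolyl hydroxylases parted in SMADi, where P4HA1 rose by 0.66 (SE 0.25, adjusted p = 0.0226) and P4HA2 fell, with a log2 change of -1.26 (SE 0.17, adjusted p = 1.03e-08). In BMP4 both rose, by 0.96 and 1.09. EGLN3, an oxygen-sensing hydroxylase that HIF itself induces, rose by 0.92 in BMP4 and fell, with log2 changes of -0.39 in SMADi and -1.46 in Endo. EGLN1, the main HIF hydroxylase, changed by -0.27 (SE 0.26, adjusted p = 0.424), 0.00 (SE 0.26, adjusted p = 1.00) and -0.33 (SE 0.26, adjusted p = 0.264). KDM3A, a histone demethylase, fell, with log2 changes of -0.53 in BMP4 and -1.37 in Endo. BNIP3L, the relative of BNIP3, changed by -0.01, 0.16 and -1.05.

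The transcripts of the HIF system itself were read from a list of 11 genes. HIF1A held 153 and 154 CPM at day 0, 189 and 186 on BMP4 day 5, 201 and 182 on SMADi day 5 and 254 and 231 on Endo day 5. It was higher in all 3, by 0.29 (SE 0.10, adjusted p = 0.0114), 0.32 (SE 0.10, adjusted p = 0.00382) and 0.66 (SE 0.10, adjusted p = 2.52e-08). EPAS1 parted the protocols: 5.40 and 4.06 CPM at day 0, 42.6 and 36.4 on BMP4 day 5, 0.157 and 0.240 on SMADi day 5 and 7.75 and 7.14 on Endo day 5. It rose by 3.06 (SE 0.31, adjusted p = 3.65e-12) in BMP4 and fell, with a log2 change of -4.55 (SE 0.44, adjusted p = 2.98e-13) in SMADi; the Endo value of 0.65 (SE 0.30, adjusted p = 0.0530) was not called. Of the 11 genes 3 rose and 2 fell in BMP4, 8 and 2 in SMADi, and 6 and 0 in Endo, beside 42.0%, 51.6% and 62.4% of all genes called in either direction.

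A wider set of 27 hypoxia-responsive genes outside the 37 was read beside them. In it 8 rose and 10 fell in BMP4 by day 5, 2 and 19 in SMADi, and 11 and 12 in Endo, to be read against 42.0%, 51.6% and 62.4% of all genes. STC1, the secreted hormone stanniocalcin, went from 288 and 167 CPM at day 0 to 2448 and 2350.5 on Endo day 5, a rise of 3.40 (SE 0.20, adjusted p = 9.42e-22), and fell in SMADi, with a log2 change of -4.65 (SE 0.22, adjusted p = 1.94e-25). BHLHE40, a transcriptional repressor, rose in Endo by 2.29 and fell in SMADi, with a log2 change of -6.01. MYC, which drives many of the same enzymes, fell in all 3 protocols, with log2 changes of -0.36, -1.95 and -3.77. Of 12 genes of the integrated stress response, 11, 9 and 5 fell in BMP4, SMADi and Endo, and 1 rose, in Endo, against the same shares of all genes.

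Compared directly over days 1 to 5, WT SMADi had 3 members higher and 25 lower than WT BMP4, with 60.6% of all genes called. WT Endo had 7 higher and 25 lower than BMP4 (67.8%), and 12 higher and 23 lower than SMADi (67.8%). With 60.6% to 67.8% of all genes called, the share of members called is to be read against that background. Against BMP4, 11 of 15 enzymes were lower in SMADi and 12 in Endo, with medians of -0.20 and -0.79. In SMADi against BMP4 the deepest differences were those of ADM and SLC16A3 (-3.28 and -2.11). In Endo the deepest was that of SLC2A1, both against BMP4 (-3.29) and against SMADi (-2.53). The largest rises in Endo against SMADi were those of PKM, SLC2A3 and NDRG1 (2.14, 1.85 and 1.82). HIF1A differed by 0.29, 0.52 and 0.23 in these 3 comparisons and EPAS1 by -4.90, -3.88 and 1.02.

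At day 0 few members were called in KO and more in ΔATG. In KO 1 member rose and 0 fell against WT, with 3.63% of all genes called. The member was PFKP, at 221 and 279 CPM in KO and 214 and 182 in WT, a change of 0.34 (SE 0.08, adjusted p = 0.00417). In ΔATG 0 rose and 6 fell (3.93%), and 21 of 37 had an unadjusted p under 0.05, beside 15.2% of all genes. Both ΔATG libraries lay below both WT libraries in mean log2 CPM of the enzymes (-0.32 and -0.22), of lactate and transport (-0.34 and -0.35) and of the flux regulators (-0.58 and -0.61), and overlapped them in the other HIF targets (-0.18 and -0.08). The 6 called were PFKFB3 at -0.93 (SE 0.21, adjusted p = 0.00468), PFKFB4 at -0.69, PGK1 at -0.48, ALDOC at -0.40, PKM at -0.33 and PGAM1 at -0.28. PFKFB3 held 30.5 and 31.8 CPM in ΔATG, 81.4 and 36.9 in WT and 40.1 and 49.1 in KO. Against KO, 1 member of ΔATG rose and 9 fell (2.87%), with SLC16A3 (-0.97), PFKFB4 (-0.84), BNIP3 (-0.81) and P4HA2 (-0.77) among the falls and VEGFA the rise (0.51).

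These day 0 counts changed with single libraries. In the same refits the number of all tested genes called also ran from below to above that of the main fit. The shift is therefore not particular to the members. For ΔATG against WT the count of called members was 0 without WT library a and 20 without WT library b. For ΔATG against KO it was 0 without KO library b and 17 without KO library a, and for KO against WT 0 and 4. With a block for the library letter, whose day 0 deviations correlate across the lines, KO against WT gave 4 called members and ΔATG against KO 18. Under edgeR's bias-adjusted quasi-likelihood, an alternative chosen after seeing the data, 0 members were called in either line against WT at day 0. HIF1A was not called in ΔATG, at 0.11 (SE 0.10, adjusted p = 0.696), or in KO, at -0.15 (SE 0.10, adjusted p = 0.469), nor were EPAS1 (-0.45 and -0.76), EGLN1 (-0.57 and 0.09) and EGLN3 (-0.18 and 0.19).

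In SMADi both edited lines held less of most members than WT. Over days 1 to 5, 2 members rose and 28 fell in KO, with 46.6% of all genes called, and 2 rose and 27 fell in ΔATG (45.8%). Of the 15 enzymes 13 fell in each line and none rose, with medians of -0.42 in KO and -0.36 in ΔATG. Of lactate and transport 5 of 6 fell and 1 rose in each, of the flux regulators 2 of 3 fell in KO and 1 in ΔATG, and of the other HIF targets 8 of 13 fell and 1 rose in each. The 2 comparisons share the WT libraries.

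The number of lower members was highest on day 3. Then 31 were lower and 1 higher in KO (29.6% of all genes called), and 26 lower and 1 higher in ΔATG (27.5%). LDHA held 1340.3 and 858 CPM in WT, 266 and 337 in KO and 307 and 752 in ΔATG. PGK1 held 1098 and 780.1 in WT, 325 and 362 in KO and 373 and 562 in ΔATG. ALDOC held 107 and 85.6 in WT, 26.3 and 29.1 in KO and 29.8 and 36.5 in ΔATG. For all 3 every edited library lay below both WT libraries, and ΔATG library a lay nearer to KO than library b did. The day 3 changes in KO were -1.87 (SE 0.22, adjusted p = 5.54e-10) for LDHA, -1.45 (SE 0.15, adjusted p = 7.06e-12) for PGK1 and -1.80 (SE 0.11, adjusted p = 3.19e-19) for ALDOC, and in ΔATG -1.05 (SE 0.21, adjusted p = 9.89e-05), -1.01 (SE 0.15, adjusted p = 1.58e-07) and -1.54 (SE 0.11, adjusted p = 1.41e-16).

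Averaged over the 5 days, ALDOC (-1.02 in KO and -1.05 in ΔATG), ALDOA (-0.79 and -0.70) and PGK1 (-0.75 and -0.66) fell furthest among the enzymes. PFKM, at 0.05 and 0.05, and PKM, at 0.02 and 0.01, were not called in either line. For PKM the average hides a turn. It was lower in KO on day 3, at -1.03 (SE 0.10, adjusted p = 7.51e-13), and higher on day 5, at 909 and 872 CPM in KO, 759.6 and 783 in ΔATG and 547 and 445 in WT, by 0.84 (SE 0.10, adjusted p = 1.95e-10) and 0.64 (SE 0.10, adjusted p = 3.14e-07). All 4 edited libraries on day 5 lay above both WT libraries.

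The lactate exporter SLC16A3 already differed between the lines on day 1. It held 14.2 and 11.2 CPM in WT on day 1, 1.79 and 2.01 in KO and 2.09 and 2.15 in ΔATG, when 6 members in KO (8.18% of all genes called) and 9 in ΔATG (9.91%) were called. The day 1 change was -2.73 (SE 0.31, adjusted p = 1.50e-09) in KO and -2.58 (SE 0.31, adjusted p = 3.88e-09) in ΔATG, and the average over days -1.83 and -1.42. BNIP3 and P4HA2 were also called lower in KO on day 1, with log2 changes of -1.12 and -0.86, as was ALDOC (-0.36).

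The glucose transporters went opposite ways. On day 5 SLC2A1 held 216 and 181 CPM in WT, 498 and 543 in KO and 606 and 580.3 in ΔATG, and SLC2A3 377 and 316 in WT, 127 and 108 in KO and 126 and 124 in ΔATG. The lines did not overlap with WT at either gene. SLC2A1 rose by 1.39 (SE 0.22, adjusted p = 7.79e-07) and 1.58 (SE 0.22, adjusted p = 5.50e-08) and SLC2A3 fell, with log2 changes of -1.56 (SE 0.13, adjusted p = 4.13e-15) and -1.47 (SE 0.13, adjusted p = 3.86e-14). The log2 ratio of SLC2A1 to SLC2A3 was thus -0.80 in WT, 2.15 in KO and 2.25 in ΔATG. On day 3 SLC2A1 had still been lower in KO, with a log2 change of -0.74. PFKFB3 turned in the same way, from -0.84 in KO on day 3 to 1.32 on day 5, when it held 54.997 and 53.8 CPM in KO, 50.7 and 56.4 in ΔATG and 22.3 and 21.4 in WT. LDHB held at first, with -0.03 in KO on day 3 (not called), and was lower, with a log2 change of -0.60 on day 5.

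Among the other HIF targets the deepest averaged falls in KO were those of ADM (-1.66 in KO and -0.86 in ΔATG), BNIP3 (-1.38 and -1.22), VEGFA (-1.32 and -1.14) and P4HA2 (-1.21 and -1.17). ADM reversed within the course. On day 1 it was higher in the edited lines, at 151 and 151 CPM in KO and 156 and 155 in ΔATG against 88.7 and 79.3 in WT, by 0.85 (SE 0.15, adjusted p = 4.86e-05) and 0.89 (SE 0.15, adjusted p = 2.01e-05). On day 3 it was lower, at 0.538 and 0.425 in KO and 0.582 and 1.65 in ΔATG against 4.43 and 3.97 in WT. On day 4 ADM held 1.14 and 1.41 in WT, 0.0187 and 0.0708 in KO and 0.132 and 0.296 in ΔATG, so few counts that its average depends on the prior count of the fit. VEGFA on day 5 held 128 and 155 CPM in WT, 32.1 and 24.2 in KO and 31.4 and 26.1 in ΔATG, changes of -2.33 (SE 0.16, adjusted p = 1.51e-18) and -2.30 (SE 0.16, adjusted p = 3.58e-18) with no overlap.

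EGLN3 was the member of this list that rose, and its relative EGLN1 fell. EGLN3 held 24.5 and 21.96 CPM in WT on day 4, 91.98 and 92.7 in KO and 108 and 111 in ΔATG, and rose over the days by 0.89 (SE 0.07, adjusted p = 1.87e-16) in KO and 0.96 (SE 0.07, adjusted p = 1.24e-17) in ΔATG. EGLN1 held 38.9 and 34.7 CPM in WT on day 4, 21.98 and 17.9 in KO and 16.7 and 15.5 in ΔATG, and fell, with log2 changes of -0.90 (SE 0.12, adjusted p = 3.04e-09) and -0.86 (SE 0.12, adjusted p = 1.05e-08). On day 4 the log2 ratio of EGLN3 to EGLN1 was -0.66 in WT, 2.22 in KO and 2.77 in ΔATG. HIF1A differed by 0.08 (SE 0.04, adjusted p = 0.111) and 0.10 (SE 0.04, adjusted p = 0.0531), neither called. EPAS1 differed by -0.19 (SE 0.21, adjusted p = 0.507) and -0.12 (SE 0.21, adjusted p = 0.739).

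**Figure D4:**
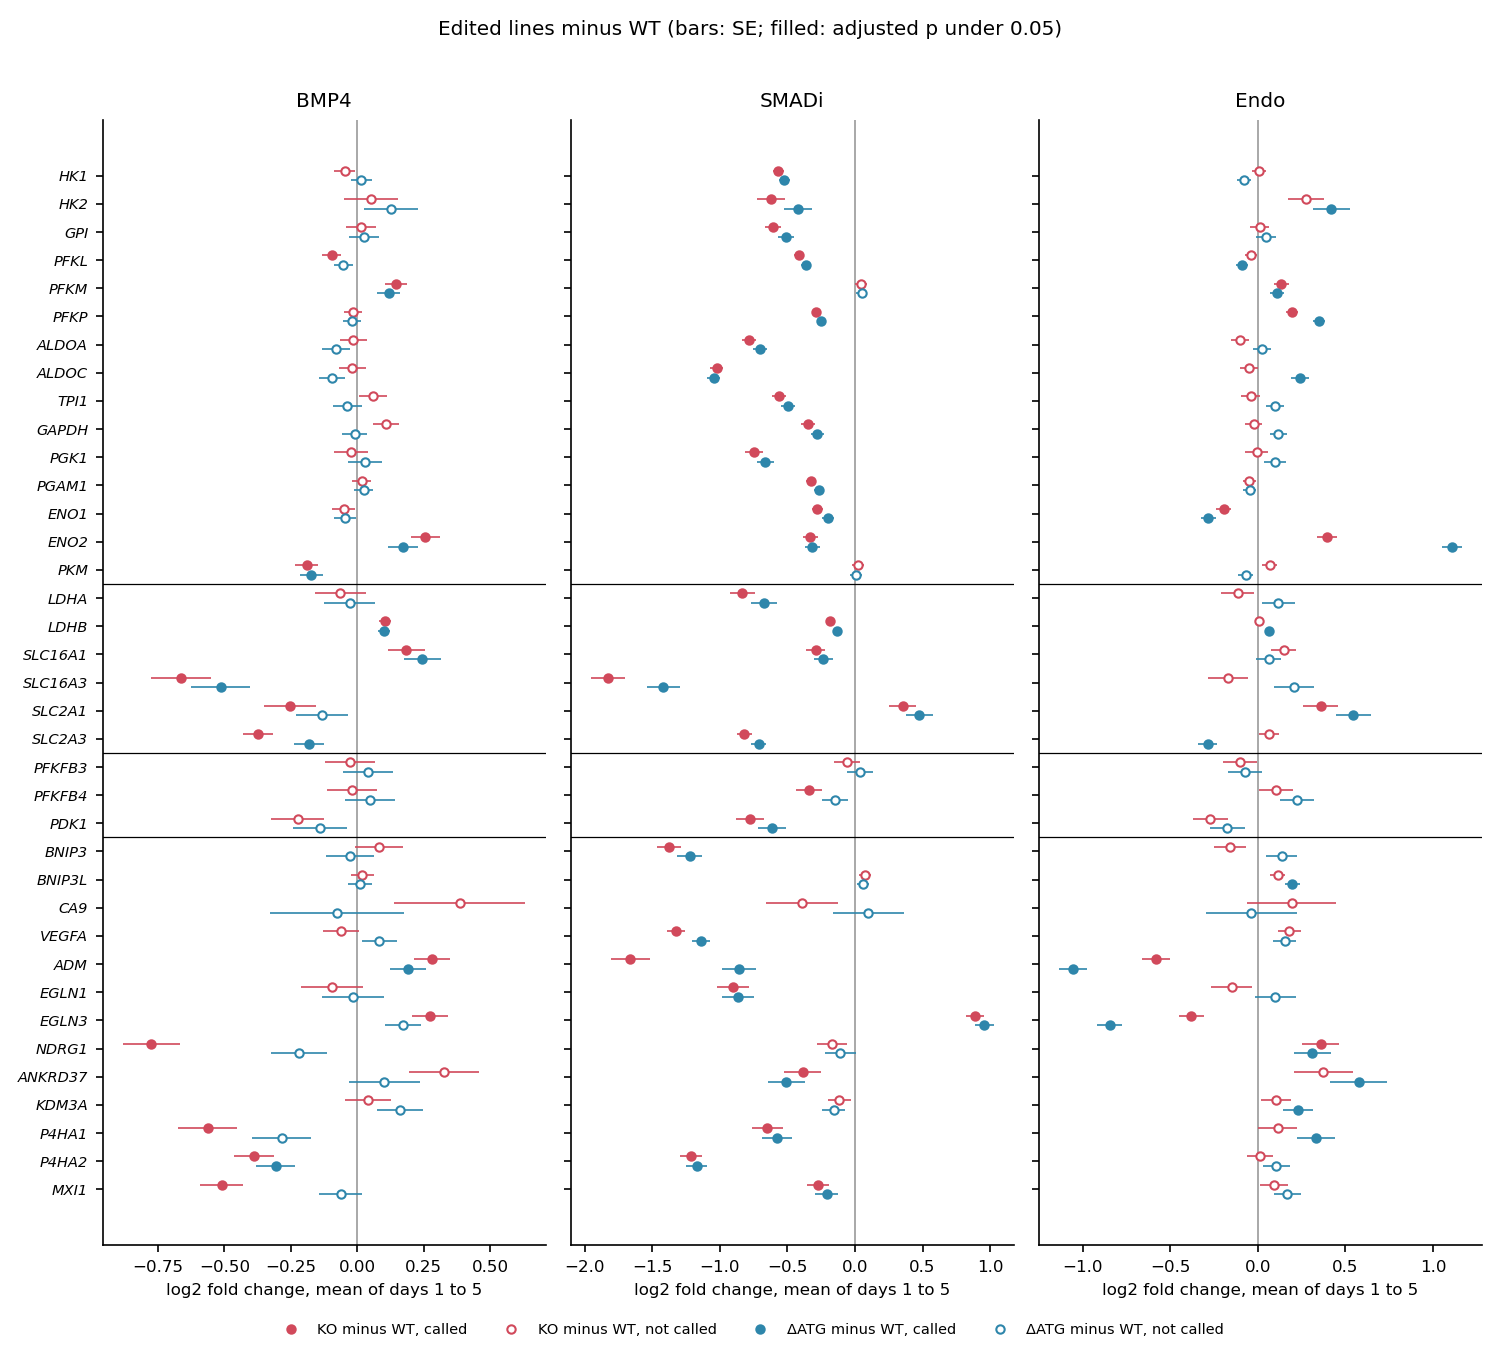
Log2 fold change of each member in KO and ΔATG against WT (horizontal axis, mean of days 1 to 5, bars are SE), by protocol on a scale of its own, with filled points for called members. In SMADi most points lie left of 0 with SLC16A3 at -1.83 in KO, while EGLN3 (0.89 in KO, 0.96 in ΔATG) lies to the right.

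The size of the SMADi difference depended on the day for 34 of 37 members in KO (32.2% of all genes) and 26 in ΔATG (29.5%) by the joint F test. In KO 6, 18, 32, 24 and 28 members were called on days 1 to 5, of which 5, 17, 31, 17 and 24 were lower, with 13.1% of all genes called on day 2, 35.0% on day 4 and 34.0% on day 5. In ΔATG 9, 14, 27, 25 and 28 were called and 6, 12, 26, 21 and 24 were lower (15.4%, 33.5% and 31.2% on days 2, 4 and 5). The share over all genes was also higher on days 3 to 5 than on days 1 and 2. Mean log2 CPM of the enzymes on day 3, relative to WT day 0, was 0.22 and -0.07 in the WT libraries, -0.91 and -0.85 in KO and -0.76 and -0.45 in ΔATG, and on day 5 it was -0.85 in WT, -1.44 in KO and -1.37 in ΔATG. On day 3 the WT pair overlapped the day 0 pair (0.15 and -0.15) and the edited pairs lay below it, and on day 5 all 3 lines lay below it.

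Genes outside the 37 moved beside them in SMADi. Of the wider hypoxia set 6 of 27 rose and 17 fell in KO, and 7 and 17 in ΔATG, against 46.6% and 45.8% of all genes called. FAM162A, a HIF target of the mitochondria, held 60.8 and 47.4 CPM in WT on day 5, 15.9 and 13.6 in KO and 16.5 and 14.4 in ΔATG and fell over the days, with log2 changes of -1.25 (SE 0.08, adjusted p = 4.55e-19) and -1.12 (SE 0.08, adjusted p = 2.92e-17). BHLHE40 fell, with log2 changes of -3.06 and -2.30, at under 1 CPM in all 3 lines by day 5. MYCN, the MYC relative of neural progenitors, fell, with log2 changes of -0.87 and -0.77. Of the integrated stress response 10 of 12 fell in KO and 8 in ΔATG, with CHAC1 (-2.23 in KO) and ASNS (-2.05) lowest. In HIF machinery 5 of 11 rose in KO and 6 in ΔATG, led by ARNT2 (0.94 and 0.96), and none fell. Of all genes 21.2% rose and 25.4% fell in KO, and 20.9% rose and 24.9% fell in ΔATG.

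Cell type markers differed between the lines in the same libraries. The pluripotent sum on SMADi day 3 was 2481 and 2525 CPM in WT, 1347 and 1356 in KO and 1360.1 and 1376 in ΔATG, with 4 of 5 markers lower over the days in each line. The neuroectoderm sum was 127 and 129.8 in WT, 62.02 and 62.5 in KO and 55.01 and 58.2 in ΔATG on day 3 and 569 and 572, 592 and 636 and 517 and 572 on day 5. The definitive endoderm sum on day 5 was 8.67 and 9.57 in WT, 77.4 and 80.2 in KO and 62.3 and 63.2 in ΔATG. The part of these cell states in the differences of the members was not tested.

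In BMP4 fewer members were called and they went both ways. Averaged over days 1 to 5, 6 members rose and 9 fell in KO, with 27.7% of all genes called, and 5 rose and 4 fell in ΔATG (15.8%). Among the enzymes ENO2 rose, by 0.26 (SE 0.05, adjusted p = 2.06e-04) in KO and 0.17 in ΔATG, and PKM fell, with log2 changes of -0.19 (SE 0.04, adjusted p = 4.24e-04) and -0.17. SLC16A3 fell in both lines, with log2 changes of -0.66 (SE 0.11, adjusted p = 3.87e-06) in KO and -0.51 (SE 0.11, adjusted p = 5.08e-04) in ΔATG, as did SLC2A3 (-0.37 and -0.18). SLC16A1 rose in both (0.18 and 0.25), so the lactate exporter and the bidirectional carrier moved apart.

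In KO 0, 2, 1, 4 and 10 members were lower on days 1 to 5, and 0, 2, 3, 2 and 1 higher, where 6.86%, 7.94% and 12.9% of all genes were called on days 2, 3 and 4. The difference depended on the day for 8 members (8.50% of all genes), and for 3 without WT day 5 library a. On day 5 NDRG1 held 29.4 and 22.02 CPM in WT, 11.9 and 9.89 in KO and 18.2 and 14.6 in ΔATG, and MXI1 40.5 and 41.7 in WT, 15.1 and 15.9 in KO and 29.03 and 24.2 in ΔATG. KO lay below WT in both libraries at each gene. The day 5 changes in KO were -1.24 (SE 0.24, adjusted p = 5.70e-05) for NDRG1, -1.41 (SE 0.18, adjusted p = 1.97e-08) for MXI1, -1.20 (SE 0.25, adjusted p = 2.38e-04) for P4HA1 and -1.50 (SE 0.26, adjusted p = 8.19e-06) for SLC16A3. Members called by edgeR in KO numbered 0 on day 1 (0.813% of all genes, 2 members at an unadjusted p under 0.05) and 11 on day 5 (19.5%). In ΔATG they numbered 0 on day 1 (0.747%, 0 at an unadjusted p under 0.05) and 5 on day 5 (8.84%). NDRG1 and MXI1 were higher in ΔATG than in KO over the days, by 0.56 (SE 0.11, adjusted p = 1.29e-04) and 0.45 (SE 0.08, adjusted p = 4.62e-05), 2 of the 3 members called between these lines (12.6% of all genes). HIF1A differed from WT by 0.01 in KO and 0.06 in ΔATG, EGLN1 by -0.09 and -0.02, and EGLN3 rose in KO by 0.27.

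EPAS1 differed between the 2 edited lines. On BMP4 day 2 it held 28.9 and 25.98 CPM in WT, 7.83 and 6.98 in KO and 45.8 and 30.2 in ΔATG. It was lower in KO over the days, at -1.06 (SE 0.13, adjusted p = 1.79e-09), was not called in ΔATG, at -0.04 (SE 0.13, adjusted p = 0.920), and differed between ΔATG and KO by 1.02 (SE 0.13, adjusted p = 2.91e-08). The mesoderm sum on day 2 was 369 and 373 CPM in WT, 55.3 and 58.7 in KO and 134 and 241 in ΔATG, and 5 of 5 mesoderm markers were lower in KO and 5 in ΔATG over the days. The amnion and trophoblast sum on day 2 was 70.8 and 77.5 CPM in WT, 19.1 and 24.6 in KO and 54.4 and 90.5 in ΔATG. The part of the markers in the BMP4 differences of EPAS1 and of the members was not tested. The bias-adjusted quasi-likelihood left 1 of the 9 ΔATG calls, that of SLC16A3.

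In Endo, where LNCPRESS1 itself was not lower in KO than in WT, 5 members rose and 3 fell in KO over days 1 to 5 (15.6% of all genes called), and 12 rose and 5 fell in ΔATG (34.8%). ENO2 was the enzyme with the largest rise in both. On day 5 it held 32.3 and 37.02 CPM in WT, 48.8 and 56.1 in KO and 88.3 and 92.3 in ΔATG, with no overlap between the 3 lines. It rose over the days by 0.39 (SE 0.06, adjusted p = 2.08e-07) in KO and 1.11 (SE 0.06, adjusted p = 2.66e-23) in ΔATG and was higher in ΔATG than in KO by 0.71 (SE 0.06, adjusted p = 3.08e-15). ENO1 fell in both lines, with log2 changes of -0.19 and -0.28, and the log2 ratio of ENO2 to ENO1 on day 5 was -5.76 in WT, -4.68 in KO and -3.71 in ΔATG.

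ADM and EGLN3 fell in both lines and further in ΔATG. On day 5 ADM held 103 and 102 CPM in WT, 78.9 and 74.6 in KO and 32.3 and 29.5 in ΔATG. Its change over the days was -0.58 (SE 0.08, adjusted p = 1.04e-07) in KO, -1.06 (SE 0.08, adjusted p = 2.20e-16) in ΔATG and -0.48 (SE 0.08, adjusted p = 8.51e-06) between ΔATG and KO. EGLN3 fell, with log2 changes of -0.38 (SE 0.07, adjusted p = 5.48e-05) and -0.85 (SE 0.07, adjusted p = 1.96e-14), opposite to its rise in SMADi, and ΔATG differed from KO by -0.47 (SE 0.07, adjusted p = 1.57e-06). SLC2A1 rose by 0.36 and 0.54. SLC2A3 changed by -0.29 (SE 0.06, adjusted p = 3.95e-05) in ΔATG and by 0.06 (SE 0.06, adjusted p = 0.573) in KO, and the lines differed by -0.35 (SE 0.06, adjusted p = 3.38e-06). In ΔATG HK2 (0.42), PFKP (0.35), P4HA1 (0.33), NDRG1 (0.31) and ANKRD37 (0.58) also rose. HIF1A differed by 0.07 (SE 0.04, adjusted p = 0.340) in KO and 0.01 (SE 0.04, adjusted p = 1.00) in ΔATG, EPAS1 by 0.21 (SE 0.16, adjusted p = 0.459) and -0.16 (SE 0.16, adjusted p = 0.521), and EGLN1 by -0.15 and 0.10.

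Day 2 had the most called members in ΔATG. On that day 20 members were higher and 2 lower than in WT, 11 of 15 enzymes among the higher ones, with 11.9% of all genes called. HK2 held 44.3 and 61.4 CPM in WT, 96.3 and 107 in KO and 175 and 75.4 in ΔATG. LDHA held 1014 and 1217 in WT, 1451 and 1472 in KO and 2148 and 1416 in ΔATG. Both ΔATG libraries lay above both WT libraries at these genes, library a further than library b. The mean log2 CPM of the enzymes relative to WT day 0 was -0.40 and -0.25 in WT, -0.11 and -0.14 in KO and 0.24 and -0.16 in ΔATG. Both KO libraries thus also lay above both WT libraries, and between the ΔATG pair. In KO 4 members were called on day 2 (3.35% of all genes). There 12 had an unadjusted p under 0.05 in the edgeR F test, beside 12.6% of all genes. The changes on day 2 were 1.24 (SE 0.23, adjusted p = 7.42e-05) for HK2, 1.24 (SE 0.12, adjusted p = 3.34e-11) for ENO2, 0.67 (SE 0.14, adjusted p = 6.25e-04) for PGK1, 0.68 (SE 0.21, adjusted p = 0.0259) for LDHA and 0.89 (SE 0.15, adjusted p = 1.34e-05) for VEGFA. On the other days 6, 8, 8 and 9 members were called in ΔATG (14.0%, 14.5%, 14.7% and 17.2% of all genes). Dependence on the day was called for 16 members in ΔATG (15.8% of all genes), for 11 without library a of ΔATG day 2 and for 22 without library b. In KO it was called for 2 (2.78%).

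Markers of the fate differed here too. The definitive endoderm sum on Endo day 5 was 13932 and 14348 CPM in WT, 13754 and 13809.6 in KO and 8853 and 9639.9 in ΔATG, and the pluripotent sum 102 and 107, 106 and 114 and 147 and 152. On day 2 the mesoderm sum was 1529 and 1596 in WT, 882 and 925 in KO and 803 and 840.1 in ΔATG. Their part in the result was not tested. With the bias-adjusted quasi-likelihood 4 members were called in KO and 10 in ΔATG over the days, in place of 8 and 17.

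The difference between edited lines and WT itself differed between protocols. For KO it was lower in SMADi than in BMP4 for 26 members and higher for 4 (42.6% of all genes called), and higher in Endo than in SMADi for 28 and lower for 1 (31.8%). For ΔATG the SMADi difference was lower than that in BMP4 for 26 and higher for 3 (36.3%), and Endo was above SMADi for 28 and below it for 1 (39.2%). Between Endo and BMP4 9 members were higher and 3 lower for KO (21.0%), and 9 and 3 for ΔATG (23.7%). For PGK1 the KO difference was -0.02 in BMP4, -0.75 in SMADi and -0.01 in Endo, and the SMADi value differed from that in BMP4 by -0.72 (SE 0.09, adjusted p = 1.96e-09). BNIP3 gave 0.08, -1.38 and -0.16, with a difference of -1.46 (SE 0.13, adjusted p = 2.16e-14). EGLN3 gave 0.27, 0.89 and -0.38, and Endo differed from SMADi by -1.27 (SE 0.10, adjusted p = 5.75e-16).

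Between the 2 edited lines in SMADi, 1 member was called over the days (1.27% of all genes): ADM, higher in ΔATG than in KO by 0.81 (SE 0.19, adjusted p = 0.00873). The count was 0 without KO day 4 library a and 3 without ΔATG day 3 library a. The ADM value rests on so few counts on day 4 that it depends on the prior count of the fit. For PGK1 the difference between ΔATG and KO over the days was 0.08 (SE 0.06), for LDHA 0.16 (SE 0.09) and for BNIP3 0.15 (SE 0.09). On day 3 alone 22 of 37 members had an unadjusted p under 0.05 in the edgeR F test, beside 5.82% of all genes. Of the members 6 were called on that day, when the 2 ΔATG libraries differed from each other. In Endo 6 members were higher and 4 lower in ΔATG than in KO (19.0%), with SLC16A3 (0.38) and ALDOC (0.29) among those higher.

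In the overexpression arm the library pairs labelled lncPRESS1, lncPRESS1 ΔATG and lncSIRP share the vector pairs. Averaged over the stages, 3 members rose and 10 fell with the label lncPRESS1 (46.0% of all genes called), 6 and 4 with lncPRESS1 ΔATG (24.2%), and 4 and 14 with lncSIRP (50.0%). At the middle stage 6 rose and 18 fell with lncPRESS1 (57.5%) and 9 and 18 with lncSIRP (59.5%), while at the early stage edgeR called 0 and 2 members (0.283% and 8.90% of all genes; 1 and 13 at an unadjusted p under 0.05) and at the late stage 5 and 3 (21.5% and 20.7%). The 2 early libraries labelled lncPRESS1 differed from each other. Mean log2 CPM of the enzymes, relative to the early vector, was 0.17 and -0.24 in them, beside -0.27 and -0.31 in the early lncSIRP pair. The early comparison was not refitted without either lncPRESS1 library, so the part of their difference in the 0 calls was not tested. Without the middle stage the averaged counts were 1 for lncPRESS1, 8 for lncSIRP and 12 for lncPRESS1 ΔATG. The difference depended on stage for 17 members with lncPRESS1 (47.7% of all genes), 19 with lncSIRP (47.7%) and 3 with lncPRESS1 ΔATG (14.3%); the last count was 0 without the early vector library a and 20 without the middle ΔATG library b. In the vector itself the main edgeR fit called 0 members between late and early (0.124% of all genes). By it 6 had an unadjusted p under 0.05 (12.9% of all genes), and DESeq2 called 1. The fits without a filter and on these groups alone called more, as given below. Mean log2 CPM of the other HIF targets, relative to the early vector, was -0.39 and -0.48 in the late vector libraries. In the early vector pair it was 0.02 and -0.02.

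The middle libraries labelled lncPRESS1 and lncSIRP stand apart in cell type. Their pluripotent sums were 363 and 370.4 and 409.9 and 422 CPM against 3720.1 and 3801 in the vector. Their mesoderm sums were 537 and 558 and 405 and 415 against 18.7 and 24.7, and their amnion and trophoblast sums 346 and 350.3 and 235 and 244 against 5.46 and 5.55. Construct and cell state cannot be told apart in these 4 libraries.

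**Figure D5:**
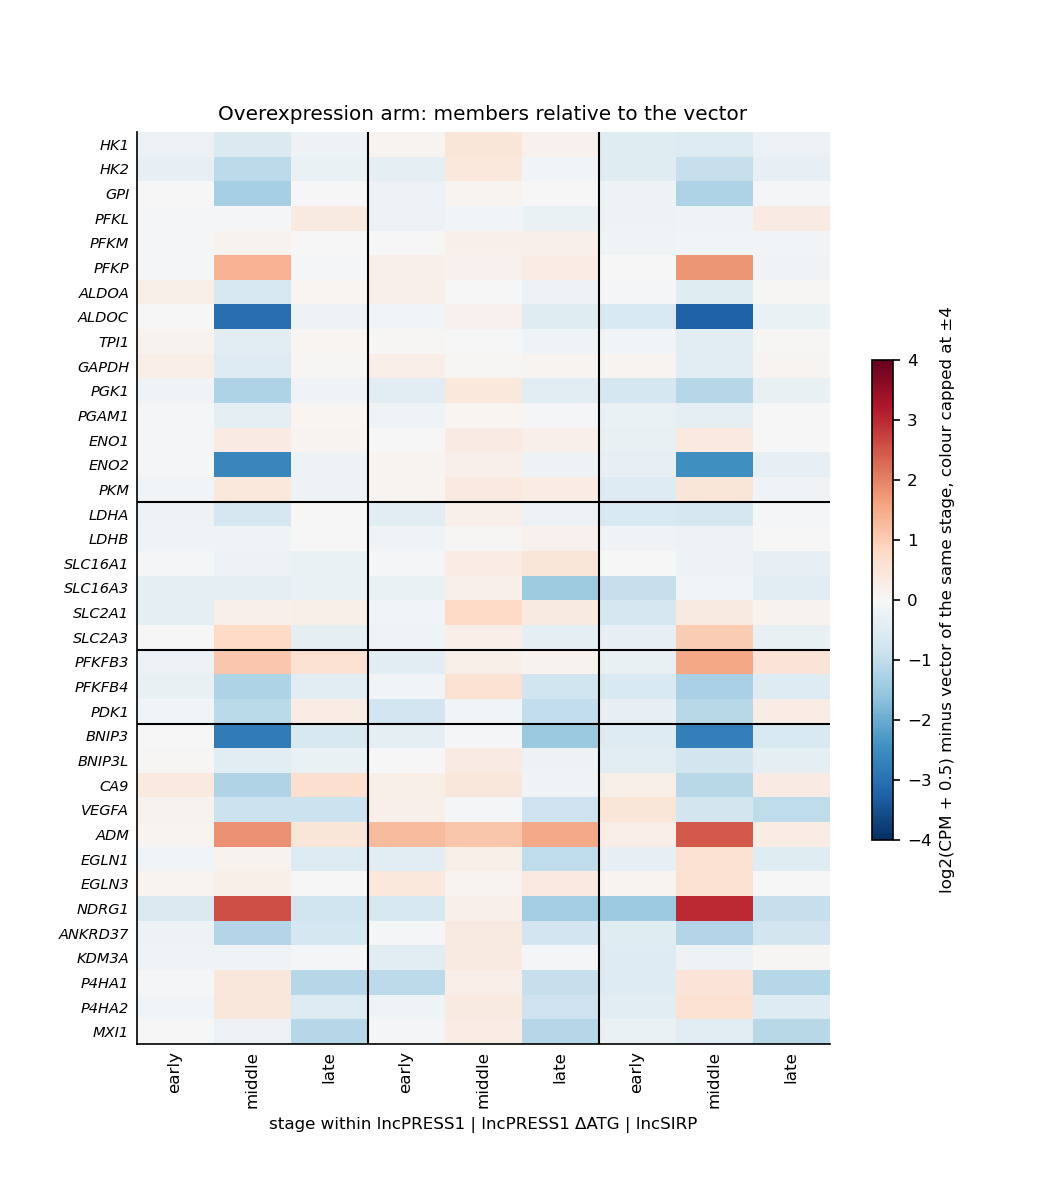
Mean log2(CPM + 0.5) of each member (rows, ordered by list) in the libraries labelled lncPRESS1, lncPRESS1 ΔATG and lncSIRP, by stage (columns), minus that of the vector at the same stage, with colour capped at 4 either way. In the middle columns of lncPRESS1 and lncSIRP ALDOC is blue, at 11.2 and 11.1 and 9.61 and 9.72 CPM against 88.7 and 102 in the vector.

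In those middle libraries members moved both ways. PFKP held 111 and 132 CPM in vector, 329.7 and 302 with lncPRESS1 and 421 and 403 with lncSIRP, and rose by 1.38 (SE 0.12, adjusted p = 4.24e-08) and 1.76 (SE 0.12, adjusted p = 1.87e-09). ALDOC held 88.7 and 102 in vector, 11.2 and 11.1 with lncPRESS1 and 9.61 and 9.72 with lncSIRP, and fell, with log2 changes of -3.09 (SE 0.28, adjusted p = 4.67e-08) and -3.30 (SE 0.28, adjusted p = 2.09e-08). ENO2 changed by -2.63 and -2.49 and BNIP3 by -2.83 and -2.76. NDRG1, one of the other HIF targets, held 5.72 and 9.86 CPM in vector, 49.04 and 45.8 with lncPRESS1 and 59.4 and 66.6 with lncSIRP and rose by 2.60 (SE 0.42, adjusted p = 4.63e-05) and 3.01 (SE 0.42, adjusted p = 1.03e-05). The averaged PFKP rise of 0.41 with lncPRESS1 and 0.53 with lncSIRP became -0.08 with each when the middle stage was left out. HIF1A differed at the middle stage by 0.72 (SE 0.13, adjusted p = 1.87e-04) and 0.78 (SE 0.13, adjusted p = 8.71e-05) and EPAS1 by 2.51 (SE 0.31, adjusted p = 2.56e-06) and 2.85 (SE 0.32, adjusted p = 6.06e-07).

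With the label lncPRESS1 ΔATG, ADM was the member with the largest rise over the stages, 1.35 (SE 0.12, adjusted p = 2.55e-07). It held 17.7 and 18.5 CPM in vector and 45.2 and 44.1 with ΔATG at the early stage, and 16.6 and 19.1 and 55.2 and 48.9 at the late stage, with no overlap at either. SLC2A1 (0.38) and EGLN3 (0.32) also rose, and NDRG1 (-0.70) and BNIP3 (-0.60) fell. At the late stage 2 members rose and 9 fell (19.9% of all genes called). The falls included BNIP3 at -1.46 (SE 0.30, adjusted p = 0.00254), NDRG1 at -1.60, SLC16A3 at -1.41, MXI1 at -1.17 and EGLN1 at -1.03, and no enzyme. Of the 10 calls over the stages, that of ADM was kept with the bias-adjusted quasi-likelihood and the other 9 were not; for lncSIRP 10 of 18 members were called with it. At the middle stage the ΔATG libraries differed from each other, with ALDOC at 145 and 77.04 CPM, on either side of the vector pair. HIF1A differed over the stages by 0.10 (SE 0.08, adjusted p = 0.416) and EPAS1 by -0.45 (SE 0.18, adjusted p = 0.0786). In the integrated stress response 4 of 12 genes fell with ΔATG, 9 with lncPRESS1 and 9 with lncSIRP, beside 24.2%, 46.0% and 50.0% of all genes called.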

How the data were processed

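RNA was sequenced from polyA libraries, per the labels' protocols made from 100 ng RNA with the Illumina Stranded mRNA Prep. The authors deposited 1 table of estimated counts per gene, for 62703 genes and 120 libraries. These estimated counts were made by the authors on GRCh38, per the submitters' processing notes, and length-scaled, per the name of the deposited table. Aligner, quantifier and annotation: not given in the sources used here.

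Estimated counts were rounded and fitted in R 4.3.3 with edgeR 4.0.16 (TMM scaling, filterByExpr, glmQLFit), with 1 mean per group. The differentiation fit held 96 libraries in 48 groups, leaving 48 residual degrees of freedom, and the overexpression fit 24 libraries in 12 groups, leaving 12. Contrasts were tested with the two-sided quasi-likelihood F test and Benjamini-Hochberg adjustment over all genes tested in a comparison. TMM factors ran from 0.857 to 1.114 and from 0.875 to 1.137. Differences over days or stages are unweighted means of the single contrasts, and dependence on day or stage is the joint F test of their differences. The script was tested on simulated data. List levels are mean log2(CPM + 0.5) minus that of the baseline group, and isozyme ratios use CPM without offset. Positions come from GENCODE 29 (37 of 37 members) and promoter windows from RefSeq on GRCh38.p14 (32 of 37).

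The members and all lists were chosen with earlier results of these data known. Per comparison and list, up to 3 called members with the largest rise and up to 3 with the deepest fall were named first, any other member could be given by its values, and from each context list up to 2 of each, with HIF1A, EPAS1, EGLN1 and EGLN3 throughout.

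Alternatives were DESeq2 1.42.0 size factors, the DESeq2 test, limma 3.58.1 voom, no filter, a replicate block, a fit on the groups compared alone, each library left out in turn, and an offset of 0.5 for isozyme ratios. The bias-adjusted quasi-likelihood of edgeR and a mean without the middle stage were added after seeing the data. The letters a and b of the libraries are not said to mark a shared batch. At day 0 the b minus a deviations of all 3 pairs of lines correlated across genes above 0.1 (0.166 to 0.352). In BMP4 11 of 15 pairs did, and in SMADi, Endo and the overexpression arm 0 of 15, 0 of 15 and 0 of 18. The main fit has no term for the letter, so its tests are unpaired at day 0 and in BMP4 too. Only the replicate block, an alternative, takes the letters into account.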

Additional observations from a re-analysis of the deposited data

Results flagged for a closer look

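The difference between an edited line and WT, averaged over days 1 to 5, was itself compared between protocols by contrasts of contrasts in edgeR's quasi-likelihood fit. In KO the difference was not the same in SMADi as in BMP4 for 30 of 37 members, in Endo as in SMADi for 29 and in Endo as in BMP4 for 12, beside 42.6%, 31.8% and 21.0% of all genes called. In ΔATG the numbers were 29, 29 and 12, beside 36.3%, 39.2% and 23.7%. Against BMP4, the KO difference was lower in SMADi for 13 of 15 enzymes and 6 of 13 other HIF targets, with medians over the whole lists of -0.52 and -0.71. In ΔATG these were 13 and 7, with medians of -0.46 and -0.32. SLC16A3 gave -1.16 (SE 0.17, adjusted p = 4.70e-08) in KO and -0.91 (SE 0.17, adjusted p = 9.61e-06) in ΔATG, and ALDOC gave -1.01 (SE 0.07, adjusted p = 5.29e-18) and -0.95 (SE 0.07, adjusted p = 6.56e-17). EGLN3 went the other way, at 0.61 (SE 0.10, adjusted p = 3.66e-07) and 0.78 (SE 0.10, adjusted p = 1.19e-09). The pluripotent and neuroectoderm sums given beside the SMADi results differ between the lines in these libraries, and their part was not tested.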

How the results depend on the processing

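Counts of called members are given by comparison, where KO and ΔATG alone stand for a line against WT over days 1 to 5 and a construct alone for its difference from the vector over stages. Only counts that an alternative moved by over 1.5 times are printed, each with its value under the settings above in parentheses. DESeq2 gave 3 (from 1) for KO at day 0, 16 (from 10) for ΔATG against KO at day 0, 2 (from 1) for ΔATG against KO in SMADi and 1 (from 0) for vector late against early. Limma voom gave 2 (from 1) for KO at day 0, 0 (from 1) for ΔATG against KO in SMADi, 2 (from 0) for day dependence of ΔATG in BMP4 and 1 (from 2) for day dependence of ΔATG against KO in SMADi. Without a filter on low counts there were 4 (from 1) for KO at day 0, 14 (from 8) for KO in Endo, 16 (from 6) for ΔATG at day 0, 23 (from 10) for ΔATG against KO at day 0, 5 (from 3) for ΔATG against KO in BMP4, 6 (from 1) for ΔATG against KO in SMADi, 17 (from 10) for ΔATG against KO in Endo, 21 (from 13) for lncPRESS1, 18 (from 10) for lncPRESS1 ΔATG, 13 (from 0) for vector late against early, 16 (from 8) for day dependence of KO in BMP4, 11 (from 2) for day dependence of KO in Endo, 6 (from 0) for day dependence of ΔATG in BMP4, 27 (from 16) for day dependence of ΔATG in Endo, 4 (from 1) for day dependence of ΔATG against KO in BMP4, 16 (from 2) for day dependence of ΔATG against KO in SMADi, 14 (from 4) for day dependence of ΔATG against KO in Endo, 29 (from 17) for stage dependence of lncPRESS1, 18 (from 3) for stage dependence of lncPRESS1 ΔATG and 29 (from 19) for stage dependence of lncSIRP. A replicate block gave 4 (from 1) for KO at day 0, 18 (from 10) for ΔATG against KO at day 0, 5 (from 3) for ΔATG against KO in BMP4, 1 (from 0) for day dependence of ΔATG in BMP4 and 7 (from 4) for day dependence of ΔATG against KO in Endo, and moved no other count by over 1.5 times. The groups compared alone, with fewer residual degrees of freedom, gave 0 (from 1) for KO at day 0, 17 (from 8) for KO in Endo, 0 (from 6) for ΔATG at day 0, 0 (from 10) for ΔATG against KO at day 0, 0 (from 1) for ΔATG against KO in SMADi, 16 (from 10) for ΔATG against KO in Endo, 28 (from 18) for lncSIRP, 19 (from 0) for vector late against early, 4 (from 8) for day dependence of KO in BMP4, 14 (from 2) for day dependence of KO in Endo, 0 (from 1) for day dependence of ΔATG against KO in BMP4, 7 (from 4) for day dependence of ΔATG against KO in Endo and 31 (from 19) for stage dependence of lncSIRP. The bias-adjusted quasi-likelihood, added after seeing the data, gave 0 (from 1) for KO at day 0, 4 (from 8) for KO in Endo, 0 (from 6) for ΔATG at day 0, 1 (from 9) for ΔATG in BMP4, 10 (from 17) for ΔATG in Endo, 1 (from 10) for ΔATG against KO at day 0, 0 (from 1) for ΔATG against KO in SMADi, 5 (from 10) for ΔATG against KO in Endo, 1 (from 10) for lncPRESS1 ΔATG, 10 (from 18) for lncSIRP, 5 (from 12) for KO, Endo against BMP4, 7 (from 12) for ΔATG, Endo against BMP4, 0 (from 8) for day dependence of KO in BMP4, 22 (from 34) for day dependence of KO in SMADi, 0 (from 2) for day dependence of KO in Endo, 13 (from 26) for day dependence of ΔATG in SMADi, 4 (from 16) for day dependence of ΔATG in Endo, 0 (from 1) for day dependence of ΔATG against KO in BMP4, 0 (from 2) for day dependence of ΔATG against KO in SMADi, 1 (from 4) for day dependence of ΔATG against KO in Endo, 9 (from 17) for stage dependence of lncPRESS1, 0 (from 3) for stage dependence of lncPRESS1 ΔATG and 9 (from 19) for stage dependence of lncSIRP. Without the middle stage, also added later, there were 1 (from 13) for lncPRESS1 and 8 (from 18) for lncSIRP, and the PFKP change turned from a rise to -0.0779 (lncPRESS1) and -0.0835 (lncSIRP). The causes of these shifts were not tested. The number of all genes called under each alternative is not given here, so no shift can be read as particular to the members. That number also changed when single libraries were left out. Leaving out each library in turn gave 11 to 20 for WT BMP4 day 5 against WT day 0, 0 to 4 for KO at day 0, 0 to 20 for ΔATG at day 0, 0 to 17 for ΔATG against KO at day 0, 2 to 5 for ΔATG against KO in BMP4, 0 to 3 for ΔATG against KO in SMADi, 5 to 12 for lncPRESS1 ΔATG, 3 to 11 for day dependence of KO in BMP4, 1 to 3 for day dependence of KO in Endo, 0 to 1 for day dependence of ΔATG in BMP4, 0 to 1 for day dependence of ΔATG against KO in BMP4, 1 to 7 for day dependence of ΔATG against KO in SMADi, 3 to 10 for day dependence of ΔATG against KO in Endo and 0 to 20 for stage dependence of lncPRESS1 ΔATG. Of 301 called changes of single members, those that lost the threshold numbered 7 under DESeq2 size factors, 2 under DESeq2, 7 under limma voom, 7 without filter, 2 under the block, 33 with the groups compared alone and 88 under the bias-adjusted fit, none reversed; over all left-out libraries 233 of 6268 did. Without the middle stage 21 of 32 lost it and 2 reversed, those of PFKP. Under the other scalings, tests and filters, the median log2 change of all genes was at most 0.0902 in size over the main comparisons. How far it moved from the main fit was not computed. With 2 libraries a group, day 0 and single-stage comparisons have the least precision, and members under about 1 CPM rest on few counts.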

Other observations

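A list of 18 genes for the entry of pyruvate into mitochondria, for gluconeogenesis and for other isoforms of the same enzymes was read beside the members, and 17 of them were tested. Of these, 3 rose and 5 fell in WT BMP4 by day 5, 1 and 9 in SMADi, and 3 and 7 in Endo, near the 42.0%, 51.6% and 62.4% of all genes called there. PCK2, the mitochondrial enzyme that makes phosphoenolpyruvate, held 84.96 and 202 CPM at WT day 0, a wide pair with library b the higher one, in contrast to most members. It held 37.4 and 64.3 CPM in WT on SMADi day 5, 8.49 and 8.01 in KO and 10.002 and 9.84 in ΔATG, and over days 1 to 5 in SMADi differed from WT by -1.11 (SE 0.10, adjusted p = 1.60e-14) and -0.77 (SE 0.10, adjusted p = 1.19e-09). FBP1, the gluconeogenic phosphatase that opposes phosphofructokinase, held 2.61 and 2.86 CPM in WT, 0.105 and 0.132 in KO and 0.122 and 0.0495 in ΔATG on that day, a handful of counts in the edited lines, with adjusted p = 4.37e-19 in KO and 1.23e-19 in ΔATG in edgeR's quasi-likelihood test over the days. The edited libraries lay below both WT libraries at either gene. PDK4, a relative of PDK1, held 0.237 and 0.228 CPM at WT day 0 and 2.07 and 1.60 on BMP4 day 5. TIGAR, which lowers fructose 2,6-bisphosphate, differed in Endo by -0.72 (SE 0.16, adjusted p = 6.33e-04) in KO and -0.83 (SE 0.16, adjusted p = 2.99e-05) in ΔATG.

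Of 4 MYC factors, 1 rose and 2 fell in WT BMP4 by day 5, 0 and 2 in SMADi, and 0 and 2 in Endo, a list too short to set against those shares. In SMADi 1 rose and 2 fell in each edited line, where 46.6% and 45.8% of all genes were called. The summed CPM of 5 amnion and trophoblast markers on BMP4 day 5 was 139 and 143 in WT, 68.6 and 71.6 in KO and 86.1 and 99.3 in ΔATG, beside pluripotent sums of 1775 and 1847, 2140.0 and 2199.5 and 2134 and 2195.

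Processed pseudogenes share sequence with several members. Rows named as pseudogenes of SLC2A3 reached at most 4.05% of the gene's own CPM in a library, those of EGLN1 1.16% and those of LDHA 1.08%.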
